A study of Mus musculus with 4 samples.

Results

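The genes followed here mark regulatory T cells. They are Foxp3, Ikzf2, Ikzf4, Il2ra, Nrp1 and Izumo1r, 6 of the 27998 genes in the count tables. They were chosen by name, and were read as raw unique molecular identifier (UMI) counts in cells with at least 200 detected genes. The data are droplet single-cell RNA-seq of T cells enriched from the blood of C57BL/6 mice bearing subcutaneous MC-38 tumors, a mouse colon adenocarcinoma line. There was 1 library per treatment, and the number of mice behind each is not given in the sources used here, so library and treatment cannot be told apart and no test between treatments is possible. The mice were female, were 6 to 8 weeks old at the start, and all carried the tumor. The untreated group received no immunotherapy. The anti-PD-L1 group received the checkpoint antibody on days 10, 13 and 17. The anti-OX40/CpG group, labelled OX40, received an agonist antibody to OX40 together with a CpG oligonucleotide near the tumor on day 7. The PDOX group received both regimens, and blood was taken on day 18.

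Regulatory T cells (Tregs) are CD4+ T cells that restrain other immune cells. Foxp3 is the transcription factor that defines the lineage, and Ikzf2 (Helios) and Ikzf4 (Eos) are Ikaros-family zinc finger proteins that work with it. Il2ra (CD25) is the alpha chain of the high-affinity receptor for IL-2, a cytokine that Tregs need and do not make in quantity. The IL-2 signal reaches Foxp3 and Il2ra through STAT5. Nrp1 (neuropilin-1) is a semaphorin and growth factor co-receptor carried by most thymus-derived Tregs in mice. Izumo1r (folate receptor 4) is a surface protein high on Tregs, and is also found on naive and some anergic CD4+ T cells. Activated conventional T cells can carry Il2ra, Ikzf2 or Nrp1, so no gene but Foxp3 defines the lineage alone. OX40, the target of the agonist antibody, is the product of Tnfrsf4 and is carried by Tregs and by recently activated T cells.

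In the GRCm38.p6 annotation Foxp3 lies on chrX:7579676-7595243, Ikzf2 on chr1:69531207-69687351 and Ikzf4 on chr10:128630839-128669671. Il2ra lies on chr2:11642792-11693194, Nrp1 on chr8:128358591-128505476 and Izumo1r on chr9:14885814-14903951. RefSeq start-site windows, from 250 bases before to 50 after each start, were held for 4 of the 6 genes, 5 windows in all. The window of the second Foxp3 start and that of Il2ra are shown. These genes were taken because Il2ra rose in cells with Foxp3, as described below, and both are textbook STAT5 targets. The window of the first Foxp3 start, chrX:7579426-7579725, is not shown. Capitals mark TTCNNNGAA, the letters of a STAT site, which reads the same on both strands. It was present in 2726 of 32851 mouse start-site windows (8.30%), and of the 5 windows held only the second Foxp3 start had it. A match is a description of the sequence only.
Foxp3, second start, plus strand, chrX:7580233-7580532: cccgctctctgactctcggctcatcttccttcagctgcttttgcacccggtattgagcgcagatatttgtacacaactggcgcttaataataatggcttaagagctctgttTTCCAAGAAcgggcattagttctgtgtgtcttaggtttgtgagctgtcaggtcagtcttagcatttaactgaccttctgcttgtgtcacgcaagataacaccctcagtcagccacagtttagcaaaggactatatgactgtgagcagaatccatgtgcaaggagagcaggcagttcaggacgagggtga
Il2ra, plus strand, chr2:11642542-11642841: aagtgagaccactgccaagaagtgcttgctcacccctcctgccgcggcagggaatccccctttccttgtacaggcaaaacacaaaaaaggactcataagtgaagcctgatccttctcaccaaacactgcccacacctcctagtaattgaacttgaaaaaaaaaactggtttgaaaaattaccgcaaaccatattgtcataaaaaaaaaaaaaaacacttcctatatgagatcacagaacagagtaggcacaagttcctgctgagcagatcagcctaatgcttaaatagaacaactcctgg

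Of 5434 deposited cells, 5299 passed the gene minimum, 784, 1446, 1559 and 1510 in library order, which runs from untreated through anti-PD-L1, then anti-OX40/CpG, to PDOX. The kept cells held 1224682 to 2778406 UMIs per library, with library medians of 1434.5 to 1618 UMIs per cell, counted without mitochondrial, ribosomal and hemoglobin genes. Cells with a Cd4 UMI and no Cd8a or Cd8b1 UMI were taken as Cd4 cells, 890 in all, with 110, 201, 271 and 308 in library order. Cells with a Cd8a or Cd8b1 UMI and no Cd4 UMI were taken as Cd8 cells (2172), and 108 B cells served as cells that should lack Foxp3. Another 1638 cells held Cd3 UMIs but no coreceptor UMI, which is why counts in the Cd4 gate are a lower limit on CD4+ T cells. T cell markers summed to 50.3 to 65.8 UMIs per 10,000 in Cd4 cells of the 4 libraries, and Cd3d, Cd3e and Cd3g were at 0 in the B cell gate by its definition. Cd4 cells of the untreated library also held 56.3 UMIs per 10,000 of 6 monocyte markers, against 5.82 to 14.8 in the other 3 libraries, and 21.5 of B cell markers, against 0.792 to 3.33. Their part in the differences between libraries was not tested. Over the 6 library pairs, 16 barcode texts were found in a pair.

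Foxp3 was sparse and mostly in T cells that were not Cd8 cells. In Cd4 cells it was detected in 3 of 110 untreated cells (2.73%, exact 95% interval 0.566 to 7.76), 3 of 201 anti-PD-L1 cells (1.49%, 0.309 to 4.30), 9 of 271 anti-OX40/CpG cells (3.32%, 1.53 to 6.21) and 15 of 308 PDOX cells (4.87%, 2.75 to 7.91). The level was 0.221, 0.126, 0.225 and 0.498 UMIs per 10,000 in the same order. PDOX was highest and anti-PD-L1 lowest, and the share intervals of all 4 libraries overlapped, so that no order of the shares is given at this depth. In Cd8 cells the share was 0, 0.740, 0.438 and 1.06%, below that of Cd4 cells in each library, and the 0 of 338 untreated cells allows a share of up to 0.888% (3 cells). Median depths were alike, 1476.5 to 1681 UMIs in Cd4 cells and 1520.5 to 1736.5 in Cd8 cells. No Foxp3 UMI was found in 108 B cells, which allows a share of up to 2.78% (3 cells), nor in 129 myeloid or 62 NK cells. B cells were shallower, with medians of 1123 to 1253.5 UMIs. Intervals and limits cover counting error only. Cells with Cd3 but no coreceptor UMI held Foxp3 in 40 of 1638 cells (2.44%), more Foxp3-detected cells than the 30 of the Cd4 gate.

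Of the 3 transcription factors, Ikzf2 had the most UMIs. It was detected in 6, 16, 30 and 51 Cd4 cells, or 5.45, 7.96, 11.1 and 16.6%. In library order the level was 0.607 UMIs per 10,000 (95% interval 0.303 to 1.09), 1.38 (1.0 to 1.85), 2.18 (1.79 to 2.64) and 2.17 (1.80 to 2.60). The share stepped up through the 4 libraries, while the level was nearly the same in anti-OX40/CpG and PDOX, whose ratio was 0.996 (0.760 to 1.31). A single Cd4 cell held up to 20 Ikzf2 UMIs, so the sums are carried by a minority of cells. Cd8 cells also carried Ikzf2, at 0.636, 0.827, 0.850 and 0.954 UMIs per 10,000, a narrower range than in Cd4 cells. Among B cells, 2 of 108 had an Ikzf2 UMI.

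Ikzf4 was near the limit of detection. Its 13 UMIs in 890 Cd4 cells lay in 13 cells, 3, 5, 1 and 4 in library order, and its share in all Cd4 cells (1.46%) lay beside 1.24% in Cd8 cells. It was at 0 in B, myeloid and NK cells. No order of the libraries could be read from so few UMIs.

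Il2ra, the receptor chain, was also sparse, with 23 UMIs in 18 Cd4 cells. Its level was 0.0552, 0.0628, 0.122 and 0.258 UMIs per 10,000 of Cd4 cells in library order, from 1, 2, 6 and 14 UMIs. PDOX was highest, and its ratio to the untreated library, 4.67, had an interval of 0.711 to 198 because the latter held a single UMI. Cd8 cells held 0.0187 to 0.0757 UMIs per 10,000.

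The surface gene Nrp1 had the widest range over the libraries among the members with 20 or more UMIs in each pair. It was detected in 3, 15, 30 and 60 Cd4 cells in library order (2.73, 7.46, 11.1 and 19.5%). The level was 0.221 (0.0602 to 0.565), 0.690 (0.433 to 1.05), 0.878 (0.635 to 1.18) and 1.53 (1.22 to 1.90) UMIs per 10,000. The PDOX interval lay above those of the other 3 libraries, and the anti-PD-L1 and anti-OX40/CpG intervals overlapped. Cd8 cells held 0.112, 0.305, 0.252 and 0.361 UMIs per 10,000, also lowest in the untreated and highest in the PDOX library. Nrp1 was at 0 in B cells and NK cells, but 16 of 129 myeloid cells (12.4%) had it, and monocyte markers are therefore given beside the Nrp1 split.

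Izumo1r was the most widely detected member, and its levels spanned the smallest ratio over the libraries. Its share in Cd4 cells was 21.8, 20.4, 21.0 and 15.9% in library order. Its level was 1.66 (1.12 to 2.36), 2.35 (1.85 to 2.95), 1.94 (1.57 to 2.37) and 2.17 (1.80 to 2.60) UMIs per 10,000, and all 4 intervals overlapped. PDOX thus had the lowest share but not the lowest level, with 118 UMIs in 49 cells. Cd8 cells held 0.841, 0.544, 0.698 and 0.721 UMIs per 10,000, below Cd4 cells of each library.

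**Figure D1:**
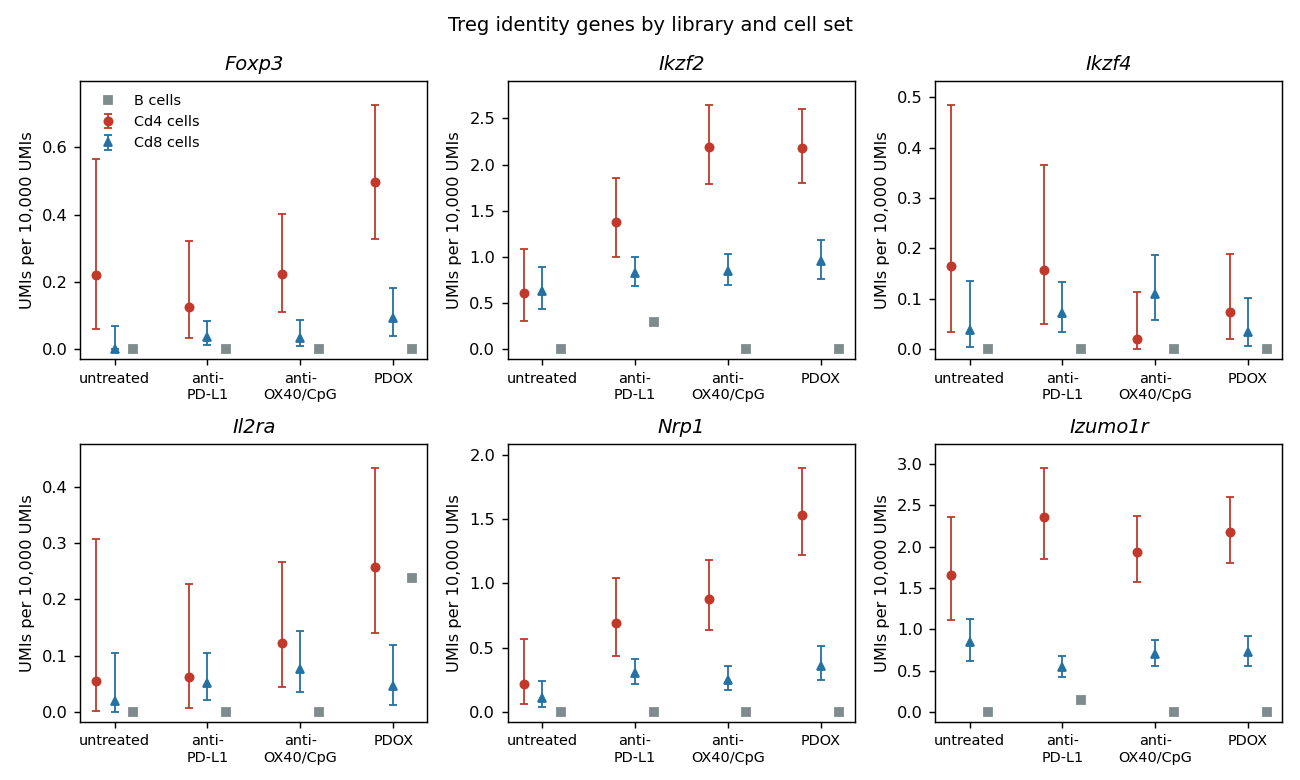
Level of each of the 6 genes in UMIs per 10,000 UMIs of the cell set, by library, in Cd4 cells (circles) and Cd8 cells (triangles) with exact Poisson 95% intervals and in B cells (squares, no bars). Ikzf2 and Nrp1 are lowest in the untreated library, Izumo1r lies between 1.66 and 2.35 in Cd4 cells of every library, and Foxp3 in Cd4 cells is highest in PDOX at 0.498.

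Ratios between libraries were set against those of all genes, since many genes differ between single libraries. Over the untreated library, 13.7% of 4124 genes with at least 20 UMIs in the pair were 1.5-fold or more higher in Cd4 cells of the anti-PD-L1 library, and 2 of the 3 members with enough UMIs were, Ikzf2 (2.27, 95% interval 1.16 to 4.88) and Nrp1 (3.13, 1.06 to 12.5). For anti-OX40/CpG the background was 17.4%, and again Ikzf2 (3.60, 1.93 to 7.42) and Nrp1 (3.98) were past 1.5-fold among 3 members. For PDOX the background was 19.6%, and 3 of 4 members were past it, Ikzf2 (3.58, 1.93 to 7.37), Nrp1 (6.93, 2.61 to 26.0) and Foxp3 (2.25, 0.785 to 8.86), the last with an interval that holds 1. Izumo1r stayed under 1.5-fold in each, at 1.42, 1.17 and 1.31. These intervals compare libraries, not treatments, and the 3 ratios share the untreated library. Without it, PDOX over anti-PD-L1 was 3.96 for Foxp3 (1.38 to 15.6), 2.22 for Nrp1 (1.37 to 3.72) and 1.58 for Ikzf2 (1.11 to 2.28). PDOX over anti-OX40/CpG was 2.22 for Foxp3 (1.06 to 4.95) and 1.74 for Nrp1 (1.19 to 2.58). All these ratio intervals treat each UMI as independent, though a cell can hold several, so they can be too narrow. The intervals of the Foxp3 shares, which count cells, overlapped for all libraries.

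Whether the members are higher in Cd4 than in Cd8 cells was tested on sums per library, with the library as a block. Of 6285 genes tested, 1.40% were higher in Cd4 cells, and so were Nrp1, Izumo1r and Ikzf2, the members that passed the filter on low counts. The filter asked for a minimum level in as many cell sets as there were libraries, so a gene can pass it on the strength of the higher cells alone, as Nrp1 did here. With no filter 1.02% of 14373 genes were higher, and 4 of the 6 members. Nrp1 was higher by 1.60 on the log2 scale (SE 0.21, edgeR adjusted p = 0.00130) and Izumo1r by 1.52 (SE 0.16, edgeR adjusted p = 0.000372), both in 4 of 4 libraries. Ikzf2 was higher by 0.90 (SE 0.18, edgeR adjusted p = 0.0152) in 3 of 4 libraries, and the call was lost without the anti-OX40/CpG library (adjusted p = 0.18) or PDOX (adjusted p = 0.076), with DESeq2 (adjusted p = 0.0975), with no block (adjusted p = 0.198) and after thinning to 750 UMIs (adjusted p = 0.296). The Nrp1 call was lost with no block (1.70, edgeR adjusted p = 0.083), and after thinning Nrp1 was too sparse to be tested, which left Izumo1r as the member called. Foxp3, Ikzf4 and Il2ra had too few UMIs for the filter. With no filter, Foxp3 was higher by 2.44 (edgeR adjusted p = 1.36e-05), while Il2ra gave 1.17 (edgeR adjusted p = 0.438) and Ikzf4 0.35 (edgeR adjusted p = 0.95). Among 20 other Treg surface and effector genes, 8 were tested, 3 rose, Tnfrsf4 (OX40) by 2.33, Icos by 0.86 and Tnfrsf18 (GITR) by 0.74, and Itgae, an epithelial-homing integrin chain, fell by 2.22. The Icos and Tnfrsf18 calls were each lost without the anti-OX40/CpG library and without PDOX. Tnfrsf4 passed the filter on Cd4 cells alone, and Itgae on Cd8 cells alone. No other Ikaros gene passed, with Ikzf1 at -0.07, Ikzf3 at -0.56 and Ikzf5 at -0.22.

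Against B cells, 8.13% of 2312 genes were higher in Cd4 cells of the 3 libraries with at least 10 B cells. Izumo1r was the only member past the filter, and passed it on Cd4 cells alone, where it had to be the higher. It had 223 UMIs in Cd4 cells and 1 in B cells of these libraries, a ratio of 29.1 with a counting interval of 5.17 to 1154. After thinning it was too sparse to be tested. With no filter 3.37% of 12447 genes were higher, and 3 of the 6 members, Izumo1r (edgeR adjusted p = 2.41e-08), Ikzf2 (edgeR adjusted p = 0.000124) and Nrp1 (edgeR adjusted p = 0.000423). Over all 4 libraries 4 of 108 B cells (3.70%) had a UMI of any member, and none had UMIs of 2 or more.

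The members were next counted per cell. At least 1 of the 6 was detected in 30.0, 29.4, 33.9 and 39.3% of Cd4 cells in library order, and 2 or more in 4 of 110 (3.64%, 1.0 to 9.05), 14 of 201 (6.97%, 3.86 to 11.4), 27 of 271 (9.96%, 6.67 to 14.2) and 40 of 308 (13%, 9.44 to 17.3). The intervals of untreated and PDOX did not overlap, and those of neighbours in the order did. This separation depended on the gate, and was not seen after thinning. Among cells with at least 2 Cd4 UMIs the shares were 13.6% (3 of 22, 2.91 to 34.9), 10.3% (4 of 39), 13.3% (11 of 83) and 19.2% (20 of 104, 12.2 to 28.1), with overlapping intervals and the untreated library no longer lowest. In Cd8 cells the share with 2 or more was 2.07, 3.40, 3.50 and 2.96%. After each cell was thinned to 750 UMIs, 0, 2.54, 3.29 and 5.59% of 60, 118, 152 and 179 Cd4 cells held 2 or more, against 0, 0.529, 0.871 and 1.78% of Cd8 cells. Fewer cells enter because shallower cells were left out and the gates were read again on the thinned UMIs. The order of the libraries in Cd4 cells was the same at equal depth, and the thinned Cd8 cells had that order too, at lower shares.

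**Figure D2:**
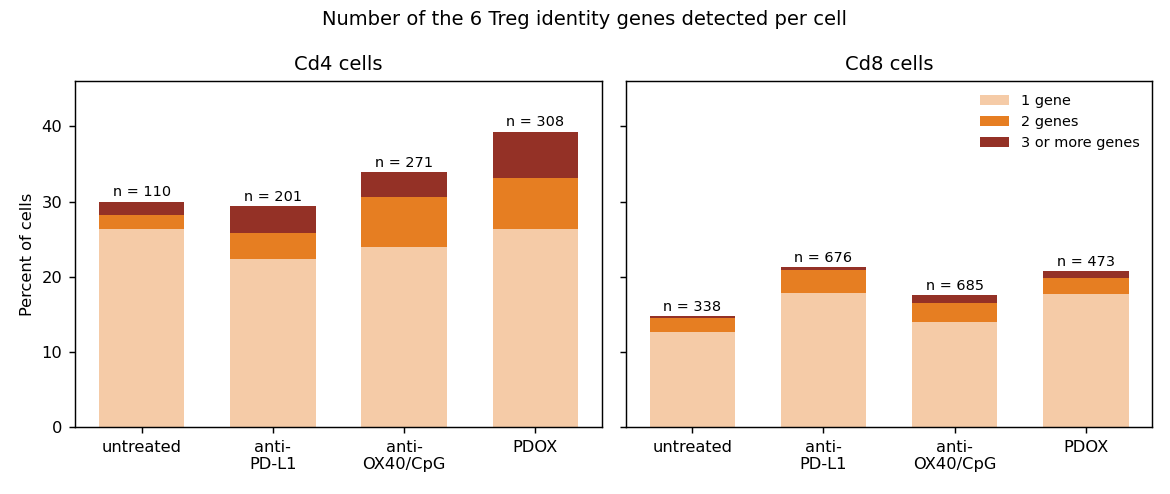
Percent of cells with 1, 2, or 3 or more of the 6 genes detected, stacked by library, in Cd4 cells (left) and Cd8 cells (right), with the number of cells above each bar. Cells with 2 or more make up 3.64% of untreated and 13% of PDOX Cd4 cells, and at most 3.50% of Cd8 cells in any library.

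Detection of Foxp3 went with that of the other members in the same cells. Of the 30 Foxp3-detected Cd4 cells, 24 also held Ikzf2 (80.0%, 61.4 to 92.3), against 9.19% of the 860 without Foxp3. Izumo1r was in 19 (63.3%, 43.9 to 80.1) against 17.7%, and Nrp1 in 13 (43.3%, 25.5 to 62.6) against 11%. Il2ra was in 4 (13.3%, 3.76 to 30.7) against 1.63%, and Ikzf4 in 1 (3.33%) against 1.40%. By library, Foxp3 and Ikzf2 were together in 2, 3, 7 and 12 cells. Independent detection within each library would give 3.88 cells with both in all, against the 24 counted. Of 13 Foxp3-detected Cd8 cells, 4 held Ikzf2 (1.22 from independence), 4 Nrp1 (0.623) and 5 Izumo1r (1.02). Foxp3-detected cells were deeper, with median UMIs of 1868 to 2236 over the libraries against 1475 to 1675, and a share of cells with a UMI grows with depth. In cells thinned to 750 UMIs, 5 of 10 Foxp3-detected Cd4 cells still held Ikzf2 (50.0%), and 5 held Izumo1r, where 0.694 and 0.904 cells would follow from independence.

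**Figure D3:**
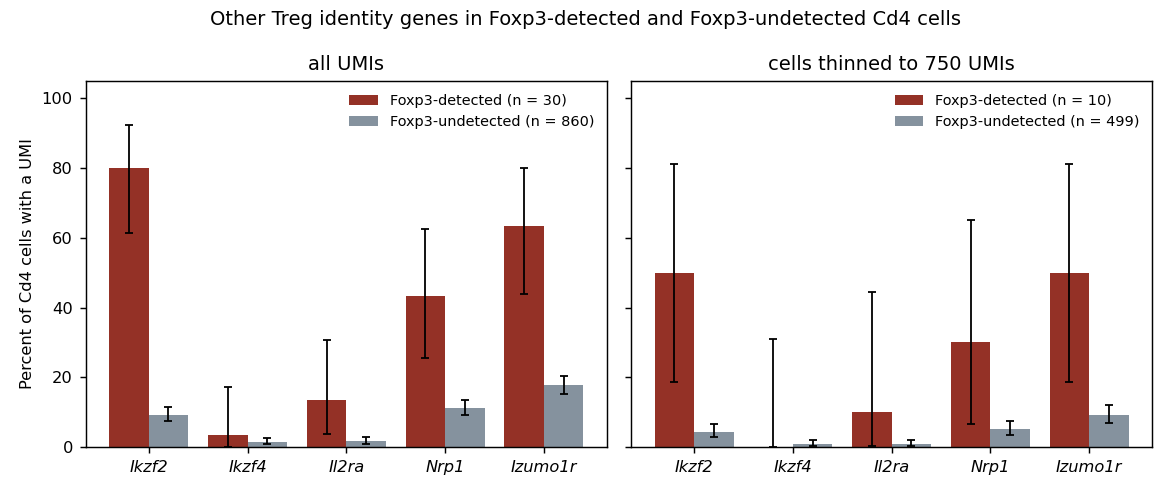
Percent of Foxp3-detected and Foxp3-undetected Cd4 cells with a UMI of each other member, over the 4 libraries, with all UMIs and after thinning to 750 UMIs per cell, with exact 95% intervals. Ikzf2 shows the widest separation, 80.0 against 9.19% with all UMIs, and Ikzf4 the narrowest, 3.33 against 1.40%.

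Read the other way, most cells with a member other than Foxp3 had no Foxp3 UMI. Of 103 Ikzf2-detected Cd4 cells 24 held Foxp3 (23.3%), as did 13 of 108 Nrp1-detected (12%), 19 of 171 Izumo1r-detected (11.1%) and 4 of 18 Il2ra-detected cells (22.2%). Foxp3 gave only 1.53 UMIs per cell that had it, so missing UMIs do not show that a cell lacks the transcript. Among Izumo1r-detected cells Foxp3 was in 1 of 24 untreated (4.17%, 0.105 to 21.1) and 2 of 41 anti-PD-L1 cells (4.88%, 0.596 to 16.5). It was in 5 of 57 anti-OX40/CpG (8.77%, 2.91 to 19.3) and 11 of 49 PDOX cells (22.4%, 11.8 to 36.6). The intervals of all libraries overlapped. Among pairs without Foxp3, Ikzf2 and Izumo1r were together in 43 cells (19 from independence), Ikzf2 and Nrp1 in 40 (14.6), and Nrp1 and Izumo1r in 30 (19.6). The same pairs were also together in more Cd8 cells than independence gives, 35 (15.0), 21 (8.01) and 16 (6.92). With all UMIs, their excess is thus not particular to Cd4 cells. After thinning, the same pairs in that order were together in 6 (2.35), 7 (2.04) and 6 (2.58) Cd4 cells. In thinned Cd8 cells they were together in 5 (2.66), 3 (1.14) and 1 (0.932). Nrp1 and Izumo1r were thus near independence in thinned Cd8 cells, from 1 cell. With all UMIs, Il2ra and Ikzf4 were together in no Cd4 cell, where 0.213 would be expected.

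The planned fit of Foxp3-detected against undetected Cd4 cells could not be made, because 3 of 4 libraries had under 10 detected cells. It was made instead on T cells without Cd8 UMIs, which are the Cd4 cells and those with Cd3 but no coreceptor UMI, a set chosen after seeing the data. Foxp3 was detected in 8 of 356, 8 of 603, 20 of 752 and 34 of 817 of these cells. Of 4568 genes tested, 1.20% were higher in Foxp3-detected cells, and 4 members passed the filter and were called. Il2ra and Nrp1 passed it on the Foxp3-detected sets alone, so the count of 4 is not support. With no filter, where no member is chosen by its level, 0.326% of 14097 genes were higher, and 4 of the other 5 members were called, Il2ra (3.29, edgeR adjusted p = 6.81e-06), Ikzf2 (3.10, edgeR adjusted p = 2.42e-31), Izumo1r (2.02, edgeR adjusted p = 1.81e-12) and Nrp1 (1.75, edgeR adjusted p = 0.000113).

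Il2ra was at 1.07, 1.26, 1.17 and 1.43 UMIs per 10,000 in Foxp3-detected cells of the 4 libraries and at 0.0185, 0.0515, 0.127 and 0.127 in the others, higher by 3.50 on the log2 scale (SE 0.46, edgeR adjusted p = 1.07e-07). The filter asked for 0.332 UMIs per 10,000 in 4 sets, which Il2ra reached in the 4 detected sets and in none of the others. Its level in the detected cells was thus alike in every library, and the untreated and anti-PD-L1 values rest on 2 UMIs each.

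Ikzf2 was at 5.91, 16.3, 13.8 and 15.6 UMIs per 10,000 against 0.518, 0.690, 1.59 and 1.57, higher by 3.36 (SE 0.23, edgeR adjusted p = 1.46e-17). Izumo1r was at 4.30, 8.16, 12.6 and 9.23 against 1.5, 1.78, 1.67 and 1.53, higher by 2.30 (SE 0.24, edgeR adjusted p = 8.35e-11). Nrp1 was at 2.15, 4.39, 1.95 and 3.82 against 0.296, 0.391, 0.653 and 1.06, higher by 2.0 (SE 0.35, edgeR adjusted p = 4.47e-05). Each was higher in 4 of 4 libraries, and each was called with any 1 library left out. In the undetected cells Nrp1 stepped up from 0.296 to 1.06 in library order and Ikzf2 ranged from 0.518 to 1.59, while Izumo1r stayed within 1.5 to 1.78. Nrp1 also varied between libraries in the detected cells, from 1.95 to 4.39, on few cells. Ikzf4, with 6 UMIs against 29, did not pass the filter, and was not called without it (1.97, edgeR adjusted p = 0.472). Monocyte markers were at 243.9 UMIs per 10,000 in the 8 Foxp3-detected untreated cells against 68.1, and at 3.70 to 10.7 against 15.0 to 48.9 in the other libraries. Without the untreated library the 4 members were called as well. After thinning to 750 UMIs the Nrp1 call was lost (1.90, edgeR adjusted p = 0.327) and Il2ra was too sparse to be tested, so that the members called were Ikzf2 (3.12) and Izumo1r (2.33).

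Among other Treg surface and effector genes, 7 of 20 were tested and 5 rose with Foxp3 detection. Ctla4, Klrg1 and Tnfrsf4 passed the filter on the Foxp3-detected sets alone. With no filter all 20 were tested and 7 rose. Ctla4, an inhibitory receptor that takes up CD80 and CD86, rose by 3.30 (SE 0.39, edgeR adjusted p = 6.21e-09). Tnfrsf4, which encodes OX40, rose by 3.27 (SE 0.32, edgeR adjusted p = 2.05e-11). Tnfrsf18 (GITR) rose by 1.99 and the costimulatory receptor Icos by 1.38. Klrg1, a marker of differentiated T cells, rose by 2.39, in 3 of 4 libraries and with 15 of its 30 UMIs in 2 untreated cells, and was not called without the untreated library. The Icos call was lost without PDOX. Because OX40 was a treatment target, its transcript is given in full. Tnfrsf4 was at 2.15, 3.14, 3.89 and 6.53 UMIs per 10,000 in Foxp3-detected cells in library order, and at 0.130, 0.154, 0.508 and 0.616 in undetected cells. It was found in 3 of 8, 3 of 8, 10 of 20 and 18 of 34 Foxp3-detected cells. Ctla4 was at 2.69, 2.51, 3.89 and 1.43 against 0.148, 0.144, 0.317 and 0.236, lowest in PDOX among the detected cells, where its interval (0.655 to 2.72) overlapped that of the untreated library.

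The genes whose pattern was most like that of Foxp3, by the size of the log2 difference among genes called and higher in all libraries, were Il2ra, Ikzf2, Ctla4 and Tnfrsf4. The order is a description only, since 8 of the 10 genes it names, all but Ikzf2 and Izumo1r, passed the filter on the Foxp3-detected sets alone. P2rx7 (2.76), the extracellular ATP receptor, Vill (2.69), a villin-like actin-binding gene, Matk (2.61), a kinase that restrains Src-family kinases, Fam129a (2.44), Izumo1r and Nav2 (2.04) followed. The Nav2 call was lost whenever any library was left out, the Vill call without the untreated or the anti-OX40/CpG library, and the Matk call without PDOX. With no filter Nav2 (edgeR adjusted p = 0.312) and Vill (edgeR adjusted p = 0.0796) were not called, and the other 8 were. The 5 largest decreases, Emp1, Csta1, BC100530, Plet1 and Nccrp1, are led by the epithelial gene Emp1 and had 0 UMIs in Foxp3-detected cells with 88.7 to 100% of their UMIs in 20 cells, so their fitted folds are not given. With cells rich in such genes left out, 126 genes were called instead of 143, and the 4 members among them.

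Naive T cell genes fell with Foxp3 detection. Of 10 tested, 6 fell, where 88 of all 4568 genes tested did. With no filter 8 fell. Dapl1 fell by 4.81 (SE 0.50, edgeR adjusted p = 8.35e-11), Igfbp4 by 2.63, and the naive-state transcription factors Lef1 and Tcf7 by 2.1 and 1.96. The homing receptor Ccr7 fell by 1.41 and Il7r, the IL-7 receptor chain that Tregs carry at low level, by 1.60. In the effector and memory list, 23 of 30 were tested, 7 rose and 4 fell. With no filter all 30 were tested, 5 rose and 4 fell. Cxcr3, a chemokine receptor of type 1 responses, rose by 1.83, Capg by 1.71, Lgals1 by 1.26 and S100a4 by 1.21. The cytotoxic granule gene Nkg7 fell by 2.06 and Id2 by 1.57. Cxcr3 passed the filter on the Foxp3-detected sets alone, and Nkg7 and Dapl1 on the undetected sets alone.

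Of the 17 Foxp3 partners and regulators, 13 were tested and Satb1, a chromatin organizer that Foxp3 represses, was the 1 called, and fell by 1.67 (SE 0.30, edgeR adjusted p = 8.88e-05). Runx1 was at -0.06 and Gata3 at -0.14. Of the IL-2 receptor list 11 of 14 were tested. Il2ra rose, Bcl2 fell by 1.33, a call lost without the anti-OX40/CpG library, and the shared chains Il2rb (1.02, edgeR adjusted p = 0.110) and Il2rg (-0.56, edgeR adjusted p = 0.355) did not pass. Ikzf1 (Ikaros) fell by 1.02 (SE 0.31, edgeR adjusted p = 0.0444), a call lost without the anti-OX40/CpG library or PDOX, while Ikzf3 (0.79) and Ikzf5 (0.28) did not pass. Nrp1 was the only gene called of 3 tested in the neuropilin, plexin and semaphorin list of 13, and Izumo1r the only folate receptor gene tested of 3.

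Splits of the Cd4 cells by the other members were then fitted, each leaving its own splitting gene out. The split by Ikzf2 entered 16, 30 and 51 detected cells of the 3 treated libraries, since the untreated library had 6. Of 3438 genes, 1.45% were higher in Ikzf2-detected cells, and Foxp3, Izumo1r and Nrp1 were tested and called. Foxp3 and Nrp1 passed the filter on the Ikzf2-detected sets alone. With no filter 0.350% of 12285 genes were higher, and the same 3 of the other 5 members, Foxp3 (4.74, edgeR adjusted p = 7.24e-12), Izumo1r (1.5, edgeR adjusted p = 2.88e-06) and Nrp1 (1.44, edgeR adjusted p = 0.00128). Foxp3 was at 1.36, 1.03 and 2.19 UMIs per 10,000 against 0, 0.0497 and 0.0692, higher by 4.92 (SE 0.57, edgeR adjusted p = 5.54e-05) from 37 against 5 UMIs. DESeq2 gave no adjusted p for Foxp3 or Nrp1, which its own filter removed, and called Izumo1r. This is the same association seen from the other gene, since many of the cells are shared. Izumo1r was at 5.44, 3.21 and 6.58 against 2.04, 1.66 and 1.06, higher by 1.72 (SE 0.27, edgeR adjusted p = 0.00124). Nrp1 was at 3.74, 1.95 and 2.65 against 0.38, 0.646 and 1.25, higher by 1.62 (SE 0.33, edgeR adjusted p = 0.00801), and this call was lost without the anti-OX40/CpG library (1.59, adjusted p = 0.089) and with no block (1.68, adjusted p = 0.083). Ctla4 rose by 2.73, Tnfrsf4 by 2.49 and the IL-2 receptor chain Il2rb by 1.26. The Ctla4 and Il2rb calls were lost without the anti-OX40/CpG library, and that of Il2rb also without PDOX. All 3 passed the filter on the Ikzf2-detected sets alone, and were called with no filter. Satb1 fell by 1.69, Dapl1 by 2.19 and Igfbp4 by 2.43, and these calls held with any 1 library left out. Igfbp4 passed the filter on the Ikzf2-undetected sets alone, and 37 of the 3438 genes tested were lower.

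The split by Nrp1 entered 15, 30 and 60 detected cells of the same 3 libraries, and 0.890% of 3597 genes were higher. Of 2 members tested, Ikzf2 rose, at 7.94, 4.59 and 4.17 UMIs per 10,000 against 0.532, 1.62 and 1.52, a difference of 1.95 (SE 0.32, edgeR adjusted p = 0.00736) called with any 1 library left out, though not with no block (adjusted p = 0.067) or without cells over 2900 genes (adjusted p = 0.053). Izumo1r was at 5.75, 2.24 and 3.28 against 1.91, 1.87 and 1.81 and did not pass (0.81, edgeR adjusted p = 0.133). With no filter 0.448% of 12285 genes were higher, and of the other 5 members Ikzf2 (edgeR adjusted p = 2.42e-11) and Foxp3 (1.84, edgeR adjusted p = 0.0295). Ctla4 rose by 2.20, a call lost without the anti-OX40/CpG library, and Tnfrsf4 by 2.13, both past the filter on the Nrp1-detected sets alone. Gata3 rose by 0.99, a call lost without anti-PD-L1, without anti-OX40/CpG and with no filter (edgeR adjusted p = 0.0542), while Igfbp4 fell by 5.53, with 4 UMIs in Nrp1-detected and 832 in undetected cells. Igfbp4 passed the filter on the Nrp1-undetected sets alone, and 33 of the 3597 genes tested were lower. Monocyte markers were at 57.2 UMIs per 10,000 in Nrp1-detected anti-PD-L1 cells against 9.32, and at 4.80 against 6.06 in anti-OX40/CpG and 10.4 against 8.50 in PDOX. Ikzf2 was higher in the latter 2 libraries as well.

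The split by Izumo1r entered all 4 libraries with 24, 41, 57 and 49 detected cells, and 0.248% of 2415 genes were higher, 6 in all. Of 2 members tested, Ikzf2 rose, at 1.12, 3.45, 4.58 and 8.0 UMIs per 10,000 against 0.482, 0.740, 1.37 and 0.858, by 2.33 (SE 0.23, edgeR adjusted p = 7.80e-08). It passed the filter on the Izumo1r-detected sets alone, was called with any 1 library left out and with DESeq2, and was too sparse to be tested after thinning. With no filter 0.103% of 12626 genes were higher, and of the other 5 members Ikzf2 (2.20, edgeR adjusted p = 8.80e-23) and Foxp3 (3.12, edgeR adjusted p = 7.26e-08). Nrp1 was higher in 3 of 4 libraries and did not pass (1.08, SE 0.28, edgeR adjusted p = 0.0601). Some genes ran the other way than with Foxp3 detection, since the naive gene Dapl1 rose by 0.75 and S100a4 fell by 0.79 (edgeR adjusted p = 0.0301). S100a4 passed the filter on the Izumo1r-undetected sets alone, and fell with no filter too (-0.90, edgeR adjusted p = 1.07e-06). The Dapl1 call was lost without the untreated library or anti-PD-L1, and the S100a4 call without the untreated library or PDOX. Nkg7 (by 1.38) and Id2 (by 1.26, a call lost without PDOX) fell here too, as did the granzyme gene Gzma (by 3.91). Gzma passed the filter on the Izumo1r-undetected sets alone, and 16 of the 2415 genes tested were lower. In all, 5 ordered pairs of members were called higher over the 3 splits, each with Ikzf2, and 7 with no filter, where Foxp3 in the Nrp1 and Izumo1r splits was added. With DESeq2 the pairs were 3, Izumo1r in the Ikzf2 split and Ikzf2 in both others, and after thinning, when only the Izumo1r split could be fitted, there was none. Splits by Il2ra and Ikzf4 could not be fitted, for too few detected cells.

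**Figure D4:**
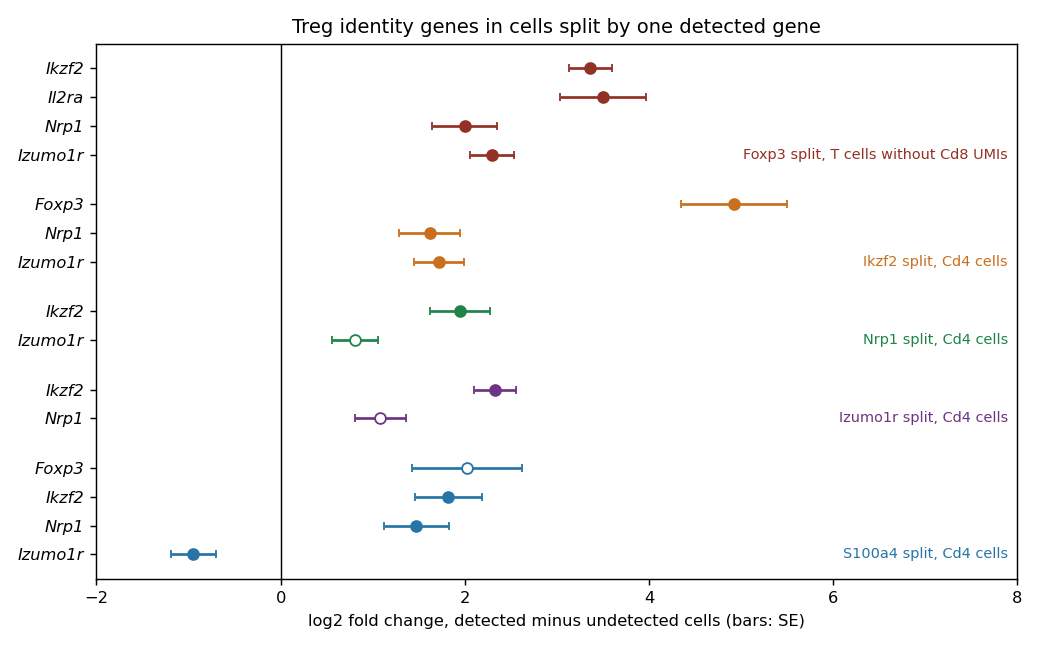
Log2 difference (± SE) of each member between detected and undetected cells in 5 splits, by Foxp3 in T cells without Cd8 UMIs and by Ikzf2, Nrp1, Izumo1r and S100a4 in Cd4 cells, with filled points where the edgeR adjusted p is under 0.05. Ikzf2 is filled wherever it was tested, at 3.36, 1.95, 2.33 and 1.82, and Izumo1r turns from 2.30 in the Foxp3 split to -0.95 in the S100a4 split.

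The members were also read within and outside of the Cd4 cells with S100a4, a calcium-binding protein of effector and memory T cells, whose share differed between libraries. This split was added after seeing the data. S100a4 was detected in 12 of 110, 13 of 201, 74 of 271 and 155 of 308 Cd4 cells (10.9, 6.47, 27.3 and 50.3%). Of 3390 genes, 4.28% were higher and 3.95% lower in S100a4-detected cells. Ikzf2 and Nrp1 passed the filter on the S100a4-detected sets alone and Izumo1r on the undetected sets alone, and all 3 were called with no filter, with edgeR adjusted p = 2.11e-06, 0.00107 and 0.0213. Ikzf2 was at 2.48, 2.33, 4.86 and 2.62 UMIs per 10,000 against 0.201, 1.28, 0.587 and 1.51, higher by 1.82 (SE 0.37, edgeR adjusted p = 0.00465). Nrp1 was at 0.931, 2.99, 1.58 and 1.76 against 0.0671, 0.451, 0.456 and 1.19, higher by 1.47 (SE 0.35, edgeR adjusted p = 0.0141). Both were higher in 4 of 4 libraries. PDOX was not the highest library for either within S100a4-detected cells, and was the highest for both within undetected cells. The untreated and anti-PD-L1 values in detected cells rest on 12 and 13 cells. Whether the S100a4 share has a part in the differences between libraries was not tested.

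Foxp3 was at 0.931, 0.664, 0.546 and 0.586 against 0.0671, 0.0693, 0.0326 and 0.366 UMIs per 10,000. The difference of 2.02 was not called (SE 0.60, edgeR adjusted p = 0.0517). Foxp3 passed the filter on the S100a4-detected sets alone, so its being higher in 4 of 4 libraries is not support. In S100a4-undetected cells PDOX held 8 Foxp3 UMIs, and the other libraries held 1, 2 and 1. Izumo1r went the other way, at 0.310, 1.66, 1.47 and 1.42 against 1.95, 2.43, 2.22 and 3.30, and fell by 0.95 (SE 0.24, edgeR adjusted p = 0.0240), lower in 4 of 4 libraries. None of these 3 calls held without the anti-OX40/CpG library, with edgeR adjusted p = 0.12 for Ikzf2, 0.12 for Nrp1 and 0.064 for Izumo1r. The Izumo1r call was also lost without PDOX (adjusted p = 0.24) and with DESeq2 (adjusted p = 0.13), and the Nrp1 call without anti-PD-L1 (adjusted p = 0.053) and with DESeq2 (adjusted p = 0.055). The Foxp3 difference was called with no filter (edgeR adjusted p = 0.010), with no block (0.014) and with all genes kept (0.035). S100a4-detected cells were deeper, with median UMIs of 1741 to 2115 against 1355 to 1531. In the same split the naive genes fell, 8 of 10, Dapl1 by 3.99 and Igfbp4 by 4.89, and Tnfrsf4 rose by 1.86 and Klrg1 by 3.53. Dapl1 and Igfbp4 passed the filter on the undetected sets alone, and Tnfrsf4 and Klrg1 on the detected sets alone. Each was called with no filter too, with edgeR adjusted p = 4.32e-29, 1.46e-40, 0.000438 and 2.17e-11 in that order.

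**Figure D5:**
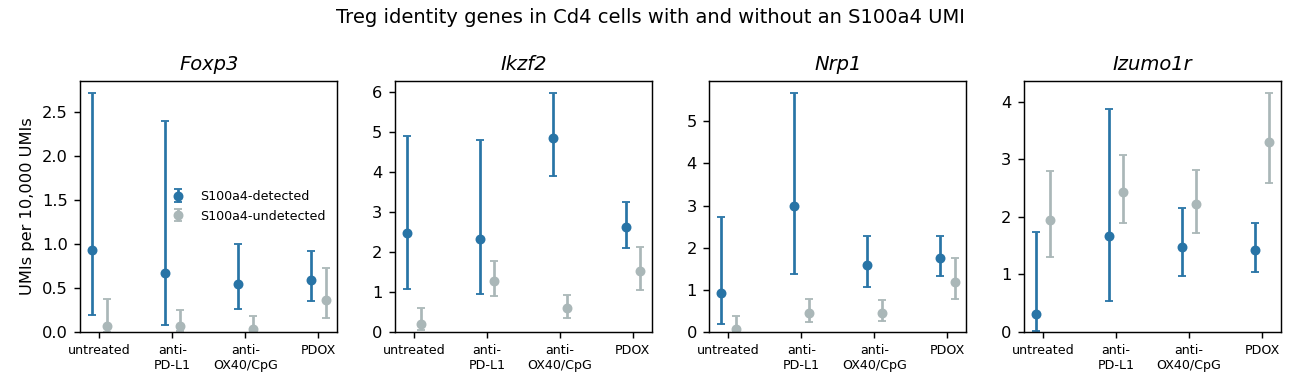
Level of Foxp3, Ikzf2, Nrp1 and Izumo1r in UMIs per 10,000 in S100a4-detected and S100a4-undetected Cd4 cells of each library, with exact Poisson 95% intervals. The first 3 lie higher in the detected cells of every library, and Izumo1r lies lower, at 1.42 against 3.30 in PDOX.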

How the data were processed

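T cells were enriched from blood by negative selection and profiled with the 10x Chromium 3′ chemistry. The authors aligned reads to mm10 with Cell Ranger and deposited raw UMI counts per gene and cell, 1 matrix per library, and per the labels they used Seurat version 2. A total of 125 mitochondrial, ribosomal and hemoglobin genes was removed, and cells with at least 200 genes were kept. No doublet caller was run here. The authors' analysis left out cells over 2900 genes as outliers, a cut tried here as an alternative, and whether they ran a doublet caller is not given in the sources used here. Cells with Cd4 and Cd8 UMIs entered no fit. The members, lists and tests were chosen with earlier results of these data known.

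Counts were summed per library and cell set, because cells are not replicates, and tested with edgeR 4.0.16 in R 4.3.3 (quasi-likelihood test, TMM, filterByExpr, library as a block, Benjamini-Hochberg adjustment over all genes tested, called at adjusted p under 0.05). The block pairs cell sets of the same library. Both sets of a library had to hold 10 cells, or 5 for Foxp3, and a fit needed 3 libraries. The p-values measure the spread over 3 or 4 single libraries, each of a different treatment, and not a spread over replicates of 1 treatment. Marker genes of a gate or split were left out of their own test. Levels are UMIs per 10,000 UMIs of the set, with exact Poisson, binomial and conditional binomial 95% intervals (scipy 1.17.1). The Poisson and conditional binomial intervals treat UMIs of the same cell as independent, so they can be too narrow. A count of 0 was read as up to 3. The filter can pass a gene on 1 side of a comparison alone, and the fit without it is given beside the members. Sparse counts limit Foxp3, Il2ra and Ikzf4. Named genes were the members, the 10 largest increases and 5 largest decreases called in one direction in every library of the Foxp3 split, and the members of 8 lists. Alternatives were DESeq2 1.42.0, no filter, no block, all genes kept, thinning to 750 UMIs with seed 1, at most 2900 genes per cell, stricter gates and leaving out each library. Scripts were tested on simulated data.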

Additional observations from a re-analysis of the deposited data

Results flagged for a closer look

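Cells with both Cd4 and Cd8 UMIs, 238 in all, entered no comparison and nevertheless held the members, above the level in B cells. Foxp3 was detected in 3.36% of them, Ikzf2 in 13%, Ikzf4 in 2.52%, Il2ra in 2.94%, Nrp1 in 14.3% and Izumo1r in 23.5%. Beside these, Cd4 cells held Foxp3 in 3.37% and Izumo1r in 19.2%, and Cd8 cells in 0.599% and 7.87%. The cells with both were deeper, with library medians of 1908 to 2087 UMIs, and a share of cells with a UMI grows with depth. Medians were 1476.5 to 1681 UMIs in Cd4 cells and 1520.5 to 1736.5 in Cd8 cells. Whether the cells with both are doublets was not tested.

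The ratio of Cd4 to Cd8 cells ran in opposite directions between libraries for a pair of genes, and the difference was not tested. Ikzf2 was at a ratio of 0.955 in the untreated library (95% interval 0.437 to 1.93) and above 1 in the other 3, from 1.67 to 2.57. Ikzf4 was at 0.187 in the anti-OX40/CpG library (0.00439 to 1.24), from 1 UMI in Cd4 cells, and above 1 in the other 3.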

How the results depend on the processing

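No member call changed direction under any alternative that gave a value. For the Foxp3 split, 143 genes were called, 93 with DESeq2, 237 with no filter, 68 with no block, 261 with all genes kept, 36 after thinning to 750 UMIs and 94 with the stricter gate, and 89 to 161 with a library left out. The 4 members became 2 after thinning, Ikzf2 and Izumo1r, with Il2ra not tested. For Cd4 against Cd8 cells, 221 genes became 450 with no filter, 81 with no block, 338 with all genes kept and 85 to 214 with a library left out, and the 3 members became 1 with no block and 1 after thinning. Against B cells, 404 became 251 with DESeq2, 660 with no filter, 195 after thinning and 207 to 479 with a library left out, and the 1 member became 3 with no filter, 0 after thinning and 1 to 3 with a library left out. For the S100a4 split, 279 became 433 with no filter, 427 with all genes kept and 147 to 366 with a library left out, and the 3 members became 1 with DESeq2 and 0 to 3 with a library left out. The 5 ordered pairs became 7 with no filter, 3 with DESeq2, which gave no adjusted p for the other 2, 3 with no block and 0 after thinning, where only the Izumo1r split had enough cells. The Foxp3 share became 0 after thinning and 9.09% with at least 2 Cd4 UMIs in the untreated library, and 0 with at least 2 Cd4 UMIs in anti-PD-L1. The share with 2 or more members became 0, 2.54, 3.29 and 5.59% after thinning, and 13.6% (untreated) and 19.2% (PDOX) with at least 2 Cd4 UMIs. In Foxp3-detected cells Ikzf2 became 50.0% and Ikzf4 0 after thinning, and Nrp1 63.6% and Izumo1r 81.8% with at least 2 Cd4 UMIs. The cause of these changes was not tested, beyond the fewer cells, UMIs or genes that each setting keeps by construction. The 1 library per treatment and the sparse counts limit all comparisons of libraries.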
